A study of Mus with 6 samples.

Results

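The transcripts described here are 28 mouse genes of cholesterol synthesis, transport, efflux, storage and turnover, chosen by gene symbol from the 54532 genes of the deposited expression table. All 28 symbols were found, each in a single row, and 27 were abundant enough to be tested. The genes were taken in 4 groups by role: 7 enzymes that lead from acetyl-CoA to farnesyl diphosphate, 11 enzymes that make squalene and finish the sterol rings, 3 genes that control the pathway, and 7 genes of sterol transport, efflux, storage and turnover. No lipoprotein receptor is among the 28, so uptake is represented only in a wider list described further down.

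RNA was sequenced from brain tissue labelled basolateral amygdala, a region central to fear memory, in 3 wild-type (WT) samples and 3 Cntnap4 knockout (KO) samples, all labelled male. Cntnap4 encodes a cell adhesion protein of neurons, related to the neurexins. A bacterial treatment appears in the title of the series, and no treated sample was analysed here. The labels give no strain, age, deleted part of the gene or number of founder lines, and none of the 6 samples carries a label for a treatment. They number the mice within each genotype without naming litters or days, so the p-values reflect only how far these samples vary, which may be technical.

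Brain cholesterol is made locally, because lipoproteins of the blood do not cross the blood-brain barrier to a relevant extent. Glia supply much of it, and oligodendrocytes use large amounts for myelin. When sterols run low in the endoplasmic reticulum, the chaperone Scap carries the transcription factor precursor SREBP2, encoded by Srebf2, to the Golgi apparatus, where it is cut and released to switch on the synthesis enzymes. Insig proteins hold Scap back when sterols are plentiful. Excess sterol activates the liver X receptors, encoded by Nr1h2 and Nr1h3, which switch on the efflux pumps Abca1 and Abcg1. Neurons also convert cholesterol to an oxysterol through Cyp46a1, the main route by which sterol leaves the brain.

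Libraries held 17647556 to 20813211 reads in genes, of which 27422 to 34475 per library lay on the 28 genes. Levels are given in FPKM, fragments per kilobase, scaled for library size, so that levels of different genes can be compared per length. Wherever 3 values of a group are listed, they follow the order of replicates 1 to 3. Cntnap4 (chromosome 8, 112570043 to 112882717) measured 2.03, 3.59 and 4.91 FPKM in the WT libraries, against 1.61, 1.00 and 1.48 in the KO libraries, lower in each KO library than in any WT library. Xist, which is made from an inactive X chromosome, was at 43.0 FPKM in the library labelled KO replicate 1 and at 0.0346 FPKM or less in every other, which goes against that library's male label. KO replicate 2 stood apart in 12 markers of hypothalamic and thalamic neurons. These summed to 22.1 FPKM there, against 1110 and 367 in KO replicates 1 and 3 and 529 to 986 in WT. Their median departure from the WT mean was -0.93 on the log2 scale in KO replicate 2, against 0.15 and -0.34 in KO replicates 1 and 3. The cause was not tested. Several differences below are also given with KO replicate 1, KO replicate 2 or another library left out.

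No gene of the 27 passed the test between genotypes, which was limma on log2(FPKM + 0.5) with adjustment over all 16155 genes tested and a threshold of 0.05. Over all genes 0.0124% passed. Cntnap4 itself did not pass, with a KO mean at 38.9% of the WT mean (limma adjusted p = 0.220). Limma with voom on the read numbers recovered from the table called 0 of the 27 as well, and 0% of all genes. At an unadjusted p under 0.05 the 27 included 3 genes higher in KO and 2 lower, 5 in all, where 15.2% of all genes were called (8.36% higher and 6.85% lower). Log2 differences subtract WT from KO on that same scale, where the added 0.5 shrinks the change of low genes, and a value after ± is the standard error of the difference.

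Differences between the genotypes were small across the cholesterol genes. Their median size, without regard to sign, was 0.16 on the log2 scale, beside 0.14 for all genes tested, and the widest was 0.49. Of 27 genes, 4 differed by at least 0.3, where 18.9% of all genes did. The 95% intervals lay within 0.6 on both sides of 0 for 25 genes, the exceptions being Cyp46a1 and Nsdhl. Values of the WT and KO libraries did not overlap for 7 genes, 5 higher in KO (Fdft1, Hsd17b7, Srebf2, Abcg1 and Cyp46a1) and 2 lower (Sc5d and Abca1). That is 25.9% of the 27, against 22.6% of all genes (11.8% higher and 10.8% lower), so the share is near the background. With every library rescaled to the same FPKM sum, 2 genes remained on the higher side, Fdft1 and Cyp46a1, and the same 2 on the lower side.

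**Figure D1:**
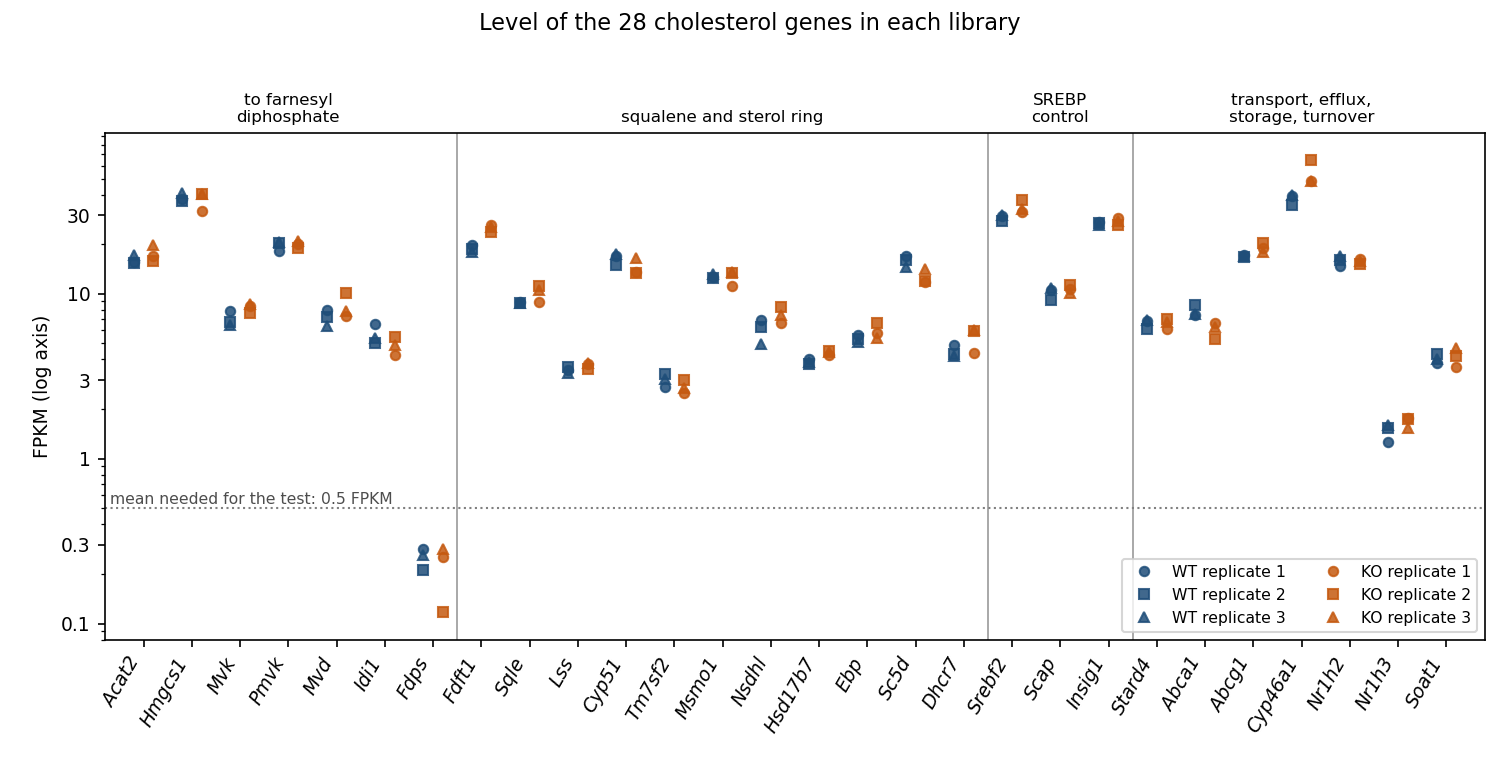
FPKM of the 28 genes in each library on a log axis, with WT in blue and KO in orange and a symbol for each replicate number. Hmgcs1, Cyp46a1, Srebf2 and Insig1 lie highest, and Fdps lies under the 0.5 FPKM needed for the test in all 6 libraries.

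The first enzymes of the pathway spanned a wide range of levels and showed no gene whose groups were apart. Hmgcs1, the HMG-CoA synthase that commits acetyl units to the pathway (chromosome 13, 119690379 to 119708260), was the most abundant of the 7, at 37.6, 36.5 and 40.8 FPKM in the WT libraries, against 32.0, 40.4 and 40.3 in the KO libraries. Its groups overlapped, with KO replicate 1 lowest. The log2 difference was -0.03 ± 0.11, with a 95% interval from -0.29 to 0.22 (limma adjusted p = 0.908). Without KO replicate 1 the difference was 0.076.

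Acat2, the cytosolic thiolase that joins acetyl-CoA units, measured 16.1 ± 1.04 FPKM in WT and 17.5 ± 1.93 in KO (SD, n = 3 here and below). It has a neighbouring near-copy, Acat3, at 1.36 ± 0.134 and 1.82 ± 0.393 FPKM, so reads may be split between them. The kinases that phosphorylate mevalonate stood apart in level: Pmvk measured 19.7 ± 1.31 FPKM in WT and Mvk 7.03 ± 0.740. Mvk had a log2 difference of 0.22 ± 0.10 and Pmvk of 0.02 ± 0.08. Mvd, the decarboxylase that yields isopentenyl diphosphate, had a difference of 0.20 ± 0.14, with its highest value of 10.1 FPKM in KO replicate 2 0.07 without that library and 0.12 without WT replicate 3. Idi1, the isomerase of the isoprenoid unit, differed by -0.20 ± 0.13, by -0.096 without WT replicate 1 and by -0.11 without KO replicate 1.

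Fdps, the synthase of farnesyl diphosphate (chromosome 3, 89093588 to 89101959), was the lowest of the 28 genes. It measured 0.283, 0.211 and 0.262 FPKM in the WT libraries, against 0.253, 0.118 and 0.282 in the KO libraries, which rests on 9 to 24 reads per library. Its mean lay under the 0.5 FPKM needed for the test. The annotation in the table places a second protein-coding model, Gm43738, across 7512 bases of the same strand, and that model had 0 reads in all libraries. The sources used here do not say how reads in such shared stretches were counted, so this level is uncertain.

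The second stage held both the widest positive and the widest negative difference among the enzymes. Fdft1, the squalene synthase that turns farnesyl units away from other isoprenoids and into sterols (chromosome 14, 63145150 to 63179578), measured 19.9, 18.7 and 17.8 FPKM in the WT libraries, against 26.1, 23.7 and 25.5 in the KO libraries. Each KO library lay above each WT library, and the KO mean was 133% of the WT mean. The log2 difference came to 0.41 ± 0.08, with a 95% interval from 0.23 to 0.58, and had the smallest adjusted p of the 27 genes (limma adjusted p = 0.187). It ranged from 0.37 to 0.45 when any library was left out. Fdft1 shares 774 bases with Ctsb, a lysosomal protease gene on the opposite strand, and whether counting used strand is not given. Ctsb measured 87.5 ± 1.21 FPKM in WT and 98.9 ± 8.88 in KO, and was also higher in each KO library than in any WT library. Divided by Ctsb within each library, Fdft1 stood at 0.231, 0.213 and 0.202 in WT and 0.242, 0.241 and 0.282 in KO, without overlap. This ratio was computed after the values were seen and was not tested. It does not remove reads counted in the shared bases, so their part in the Fdft1 level is not known.

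Sc5d, the desaturase that introduces a ring double bond late in the pathway (chromosome 9, 42251595 to 42264256), ran the other way. It measured 16.9, 16.1 and 14.5 FPKM in the WT libraries, against 11.9, 12.01 and 14.2 in the KO libraries. The groups did not overlap, although KO replicate 3 lay close to WT replicate 3, and the KO mean was 80.1% of the WT mean. The log2 difference came to -0.31 ± 0.10 (limma adjusted p = 0.246), and -0.28 without KO replicate 2. Within each library Fdft1 exceeded Sc5d by 1.18, 1.16 and 1.23 times in the WT libraries and by 2.20, 1.97 and 1.80 times in the KO libraries. This pair was set side by side after its values were seen, and its ratio was not tested.

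Hsd17b7, a ketosteroid reductase of sterol demethylation (chromosome 1, 169949535 to 169969241), measured 4.01, 3.76 and 3.84 FPKM in the WT libraries, against 4.23, 4.47 and 4.42 in the KO libraries. Its groups did not overlap, yet the log2 difference was only 0.16 ± 0.08 (limma adjusted p = 0.383), and after rescaling to an equal FPKM sum the groups overlapped. Sqle, the squalene epoxidase and a slow step of the pathway, was steady in WT at 8.84 ± 0.114 FPKM and measured 8.94, 11.1 and 10.5 FPKM in KO. KO replicate 1 was level with WT there, and the log2 difference of 0.19 ± 0.09 became 0.28 without it. Dhcr7, a reductase of the last step, behaved similarly by library, at 4.41 FPKM in KO replicate 1 and 5.92 and 6.06 FPKM in KO replicates 2 and 3, against 4.46 ± 0.385 in WT.

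The sterol ring enzymes did not move as a block. Cyp51, which removes a methyl group from lanosterol, differed by -0.18 ± 0.11 (-0.28 without KO replicate 3), Msmo1, the next methyl oxidase, by -0.01 ± 0.09, and Lss, which closes the rings, by 0.08 ± 0.08. Cyp51 shares 166 bases with Akap9 on the opposite strand, which measured 6.07 ± 1.00 FPKM in WT and 6.17 ± 1.37 in KO. Tm7sf2, a sterol reductase (chromosome 19, 6062821 to 6077197), was the least abundant of the 11, at 2.71, 3.27 and 3.06 FPKM in the WT libraries, against 2.49, 3.01 and 2.67 in the KO libraries, with overlapping groups and a difference of -0.12 ± 0.11. Leaving out KO replicate 1 gave -0.071 and leaving out WT replicate 2 gave -0.072, while leaving out WT replicate 1 gave -0.19, as did leaving out KO replicate 2. Its span shares 9356 bases with Vps51 on the same strand, so its level is uncertain.

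Nsdhl, a dehydrogenase of sterol demethylation, and Ebp, the sterol isomerase, lie on the X chromosome. Nsdhl measured 6.92, 6.30 and 4.97 FPKM in the WT libraries, against 6.62, 8.29 and 7.46 in the KO libraries, a log2 difference of 0.28 ± 0.13 with a 95% interval from -0.03 to 0.60 and a difference of 0.16 without WT replicate 3. Ebp differed by 0.14 ± 0.10, and by 0.058 without KO replicate 2. The Xist-positive library, KO replicate 1, held the lowest KO value of Nsdhl and the middle KO value of Ebp at 5.75 FPKM. Its values for these X-linked genes were thus inside the range of the other libraries.

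**Figure D2:**
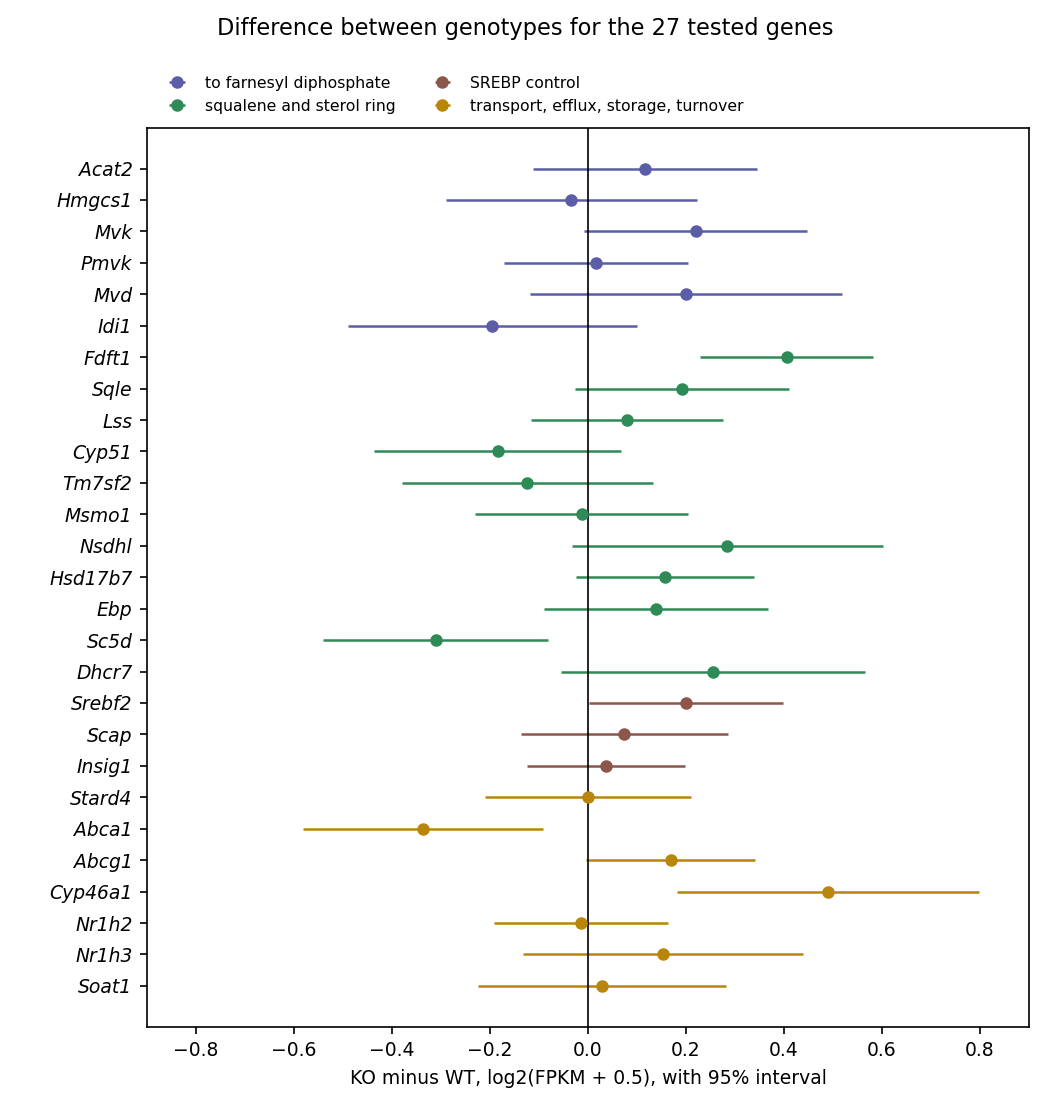
KO minus WT difference of log2(FPKM + 0.5) for the 27 tested genes in pathway order, as points with 95% intervals coloured by role. Intervals exclude 0 for 5 genes (Fdft1, Sc5d, Srebf2, Abca1 and Cyp46a1) before adjustment, and none passed after it.

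As a set, 17 of the 18 synthesis enzymes were tested, and their differences had a median of 0.12, beside 0.0067 for all genes. Of these, 11 lay above 0 and 6 below, whereas 51.5% of all genes lay above 0. Only 3 of the 17 had groups that did not overlap, 2 higher and 1 lower, which is 17.6% beside the 22.6% of all genes. Library by library, the median departure of the 18 enzymes from the WT mean was 0.057, -0.021 and -0.030 for the WT libraries, against 0.017, 0.070 and 0.10 for the KO libraries. KO replicate 1 thus lay within the WT range. The summed level of the 18 enzymes was 197, 189 and 194 FPKM in the WT libraries, against 188, 204 and 213 in the KO libraries, again with overlapping groups.

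Of the 3 control genes, Srebf2 was higher in every KO library. Srebf2 (chromosome 15, 82147181 to 82205379) measured 29.7, 27.8 and 29.9 FPKM in the WT libraries, against 31.3, 36.9 and 32.6 in the KO libraries. KO stood at 115% of WT, with KO replicate 2 highest and KO replicate 1 close to the WT range. The log2 difference was 0.20 ± 0.08 (limma adjusted p = 0.326), 0.13 without KO replicate 2, and the groups overlapped after rescaling to an equal FPKM sum.

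The genes whose proteins carry and hold the SREBP2 precursor differed less. Scap (chromosome 9, 110333288 to 110384950) measured 10.5, 9.11 and 10.9 FPKM in the WT libraries, against 10.7, 11.3 and 10.1 in the KO libraries, a difference of 0.07 ± 0.09 that was 0.0013 without WT replicate 2, 0.035 without KO replicate 2, 0.11 without KO replicate 3 and 0.12 without WT replicate 3. Insig1, itself a target of SREBP2 (chromosome 5, 28071363 to 28078662), measured 27.3, 26.8 and 26.3 FPKM in the WT libraries, against 28.8, 26.1 and 27.6 in the KO libraries. The groups overlapped for both. The Insig1 interval, from -0.12 to 0.20, was the narrowest of the 27.

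Among the genes of transport, efflux, storage and turnover, Cyp46a1 differed most, and the efflux pumps differed in opposite directions. Cyp46a1, the neuronal cholesterol hydroxylase (chromosome 12, 108334381 to 108362234), measured 39.3, 34.5 and 40.0 FPKM in the WT libraries, against 48.5, 64.8 and 48.3 in the KO libraries. Every KO library lay above every WT library, KO replicate 2 stood highest, and KO was at 142% of WT. The log2 difference was 0.49 ± 0.13, with a 95% interval from 0.18 to 0.80 (limma adjusted p = 0.218). Leaving out KO replicate 2 gave 0.35, and leaving out KO replicate 3 gave 0.56.

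Markers of excitatory neurons were also higher in KO and highest in KO replicate 2. The 14 markers summed to 369 to 431 FPKM in WT and to 639, 908 and 626 FPKM in KO replicates 1 to 3, with 9 of the 14 above WT without overlap, 1 below and none at 0, where 11.8% of all genes were above and 10.8% below in that way. The 10 medium spiny neuron markers summed to 826 to 1108 FPKM in WT and 1388, 1677 and 1181 in KO, with 5 higher without overlap. The 10 general neuron markers had a median log2 difference of 0.026, with 5 above 0 and 5 below. Of these, 2 were higher and 1 lower without overlap. The 10 summed to 1116 to 1172 FPKM in WT and 1187 to 1216 in KO, higher in each KO library. As a percent of that sum, Cyp46a1 stood at 3.36%, 3.09% and 3.51% in WT and 4.09%, 5.34% and 3.98% in KO, without overlap. Divided by Snap25 alone, one of the 10, it stood at 0.184, 0.170 and 0.248 in WT and 0.215, 0.244 and 0.228 in KO, and these groups overlapped through WT replicate 3. Both divisors were chosen after the values were seen. The part of neuron mix in the Cyp46a1 difference was not tested. In bulk tissue, more cells of a type and more RNA per cell cannot be told apart.

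Abca1, the pump that loads cholesterol onto lipid-poor apolipoproteins (chromosome 4, 53030787 to 53159895), measured 7.45, 8.52 and 7.52 FPKM in the WT libraries, against 6.68, 5.33 and 6.32 in the KO libraries. Each KO value lay below each WT value, lowest in KO replicate 2, and the KO mean was 78.0% of the WT mean. The log2 difference came to -0.34 ± 0.10, with a 95% interval from -0.58 to -0.09 (limma adjusted p = 0.242), and it came to -0.25 if KO replicate 2 was left out and to -0.40 if KO replicate 1 was.

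Abcg1, the pump that passes cholesterol to lipid-bearing particles (chromosome 17, 31057698 to 31115777), lay higher in KO. It measured 17.2, 16.6 and 16.9 FPKM in the WT libraries, against 19.1, 20.4 and 17.8 in the KO libraries, a log2 difference of 0.17 ± 0.07 (limma adjusted p = 0.337). The groups did not overlap as deposited and overlapped after rescaling to an equal FPKM sum. Within each library Abcg1 exceeded Abca1 by 2.31, 1.95 and 2.24 times in the WT libraries and by 2.86, 3.82 and 2.82 times in the KO libraries. Both pumps are textbook targets of the same receptors. Their ratio was computed after the values were seen and was not tested.

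The receptor genes themselves showed no separation. Nr1h2, the widely expressed liver X receptor, measured 15.9 ± 1.03 FPKM in WT and 15.7 ± 0.556 in KO, with a 95% interval of the log2 difference from -0.19 to 0.16. Nr1h3 (chromosome 2, 91184061 to 91202834), the lowest tested gene of the 28, measured 1.27, 1.53 and 1.59 FPKM in the WT libraries, against 1.78, 1.74 and 1.53 in the KO libraries, on 59 to 87 reads per library. Soat1, which esterifies cholesterol for storage, differed by 0.03 ± 0.11. Stard4, a soluble sterol carrier and SREBP2 target, measured 6.63 ± 0.468 FPKM in WT and 6.63 ± 0.502 in KO, with a 95% interval from -0.21 to 0.21.

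**Figure D3:**
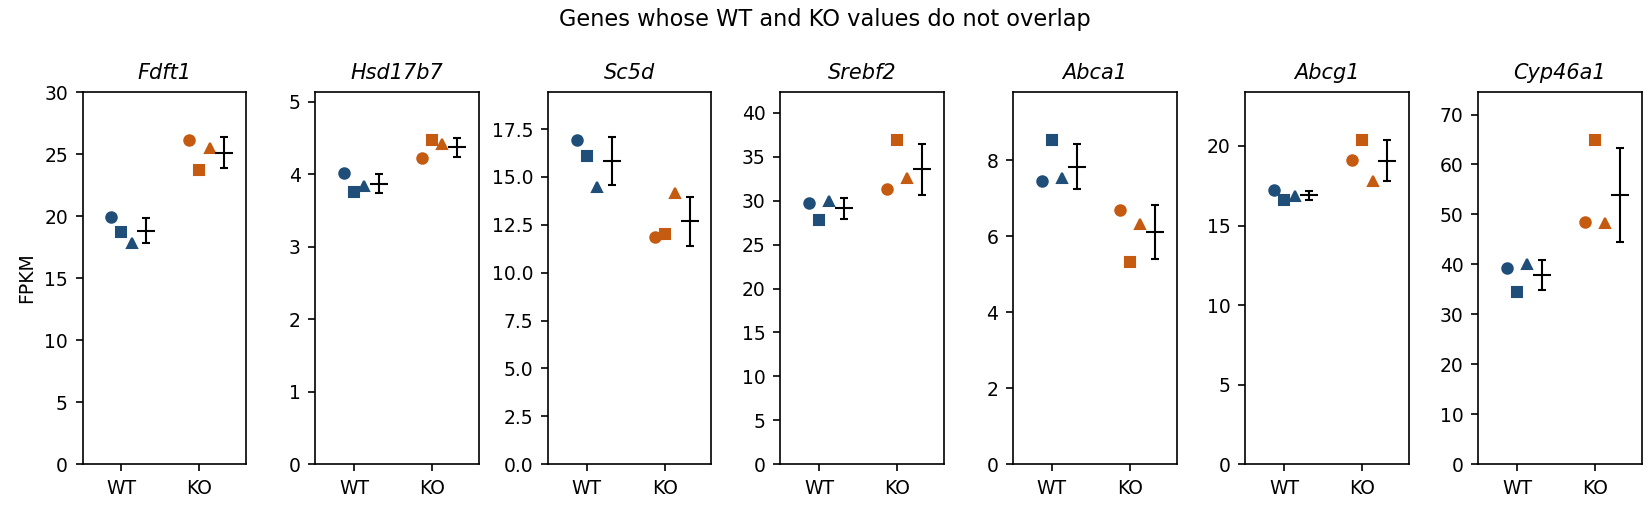
FPKM of the 7 genes whose WT (blue) and KO (orange) values do not overlap, each on its own linear axis from 0, with 3 libraries per group and the mean and SD in black. Fdft1, Hsd17b7, Srebf2, Abcg1 and Cyp46a1 lie higher in KO, Sc5d and Abca1 lower, and KO replicate 2 (square) is the most extreme KO library for Hsd17b7, Srebf2, Abca1, Abcg1 and Cyp46a1.

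Synthesis genes and the genes of transport, efflux, storage and turnover were close as sets. The median log2 difference was 0.12 for the former and 0.029 for the latter, a gap of 0.087. Taken library by library from the WT mean, the gap had an SD of 0.090 between replicates, pooled over both groups. That SD is the spread of single libraries and not the error of the 0.087. The gap between the 2 median log2 differences came to 0.019 without KO replicate 1, 0.036 without WT replicate 2 and 0.048 without KO replicate 2. The 7 genes of transport, efflux, storage and turnover had 2 higher and 1 lower without overlap, which is 42.9% beside 22.6% of all genes. Their summed level was 87.6 to 93.8 FPKM in the WT libraries, against 102, 119 and 101 in the KO libraries, and Cyp46a1 alone made up the largest part of it. No p-value is given for the contrast of the sets, since the genes were chosen with earlier results known.

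KO replicate 2 held more of the highest values than any other library. It had the highest of the 6 values for 10 of the 27 tested genes and the lowest for 3, whereas KO replicate 1 held the highest for 3 and the lowest for 7. KO replicate 3 held the highest for 7 and the lowest for 0. The library with the most lowest values was WT replicate 3, with 8, and it held the highest for 3. Within WT the coefficient of variation of single genes had a median of 6.65% and reached from 1.29% in Sqle to 16.4% in Nsdhl. Within KO its median was 10.2% and it reached 17.5%.

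**Figure D4:**
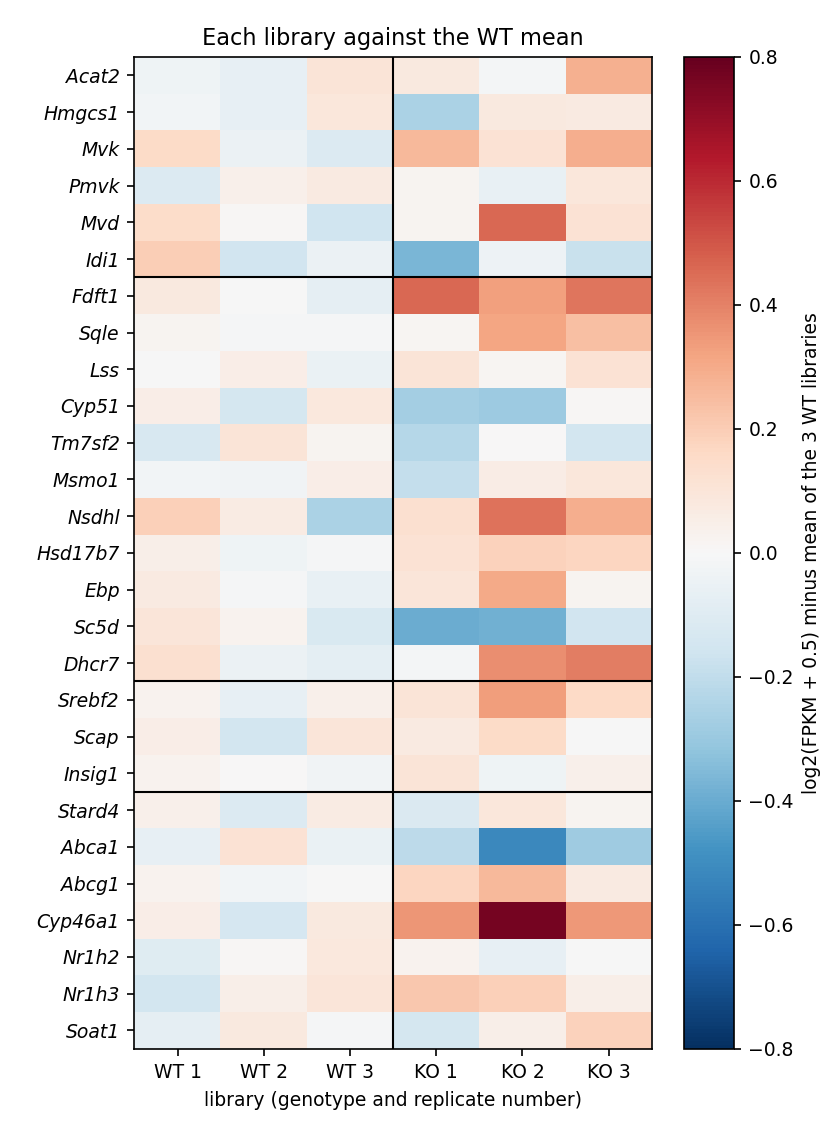
Each cell shows a gene's log2(FPKM + 0.5) in a library minus the mean of the 3 WT libraries, red above and blue below, with genes in pathway order and lines between the 4 roles. Cyp46a1 in KO replicate 2 is the strongest red, Fdft1 is red in all 3 KO libraries, and Sc5d and Abca1 are blue in all 3.

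Genes next to the pathway were read from 4 further lists, of which 59 of 61 genes were tested and 0 passed the adjusted threshold in either limma fit. Their groups did not overlap for 7 higher and 7 lower, 23.7% beside 22.6% of all genes. The list for uptake and sterol movement inside the cell came to a median of -0.043 across its 15 genes. In it 1 gene was higher and 1 lower without overlap, which is 13.3% of the list. Scarb1, a lipoprotein receptor gene, measured 3.04, 2.63 and 3.21 FPKM in the WT libraries, against 3.39, 3.48 and 3.48 in the KO libraries. Osbpl9, which encodes an oxysterol-binding protein, averaged 11.8 ± 0.265 FPKM in WT and 10.6 ± 0.627 in KO. Mylip, a liver X receptor target that marks lipoprotein receptors for destruction, differed by -0.19 ± 0.10 and the receptor gene Lrp8 by 0.10 ± 0.08.

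In the list of SREBP partners, isoprenoid branch genes and co-factors, Por and Cyb5r3 averaged higher in KO and Acss2 and Acly lower, none past the adjusted threshold. Por, the reductase that feeds electrons to Cyp51 and Sqle, measured 16.0, 15.3 and 18.8 FPKM in the WT libraries, against 23.8, 20.9 and 19.3 in the KO libraries, a difference of 0.34 ± 0.11 (limma adjusted p = 0.249). Cyb5r3, the reductase that feeds cytochrome b5 and through it Sc5d, measured 16.1 ± 0.0797 FPKM in WT and 20.2 ± 2.12 in KO. Acss2, which makes acetyl-CoA from acetate, measured 4.24 ± 0.369 and 3.18 ± 0.366 FPKM, and Acly, which makes it from citrate, 72.2 ± 3.25 and 62.0 ± 6.97 FPKM. Across the whole list of 16 the median was -0.089, and 3 genes were higher and 2 lower without overlap. That is 31.25% of the list, beside 22.6% of all genes.

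Fatty acid synthesis genes, textbook targets of the sister factor SREBP1, lay mostly below 0. Of 12 genes 11 were below 0, with a median log2 difference of -0.15, and 4 were lower without overlap (33.3% of the list, where 10.8% of all genes were lower in that way) and 0 higher. None passed after adjustment, and 4 had an unadjusted p under 0.05, all lower in KO. Of all genes 6.85% were lower at that limit, and 15.2% differed in either direction. Elovl6, an elongase of palmitate, measured 13.4, 12.4 and 10.9 FPKM in the WT libraries, against 8.65, 8.76 and 9.35 in the KO libraries (log2 -0.43 ± 0.09, limma adjusted p = 0.1998). Scd2, the abundant brain desaturase, measured 398, 428 and 454 FPKM in the WT libraries, against 343, 325 and 384 in the KO libraries. Me1, which supplies reducing power, differed by -0.27 ± 0.11 and Pnpla3 by -0.45 ± 0.15. Leaving out KO replicate 2 gave a list median of -0.085, leaving out WT replicate 3 one of -0.10, and leaving out KO replicate 3 one of -0.20. Whether this list differs from the cholesterol enzymes was not tested.

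Oligodendrocyte markers lay lower in KO as well. All 16 were below 0, 11 of them without overlap, and they summed to 1228 to 1632 FPKM in WT and to 1257, 828 and 1214 FPKM in KO replicates 1 to 3, so the sums overlapped. Markers of oligodendrocyte precursors and committed stages, taken as a single list, were below 0 for 10 of 10, 5 of them without overlap. Microglial markers were below 0 for 11 of 12, 5 without overlap. Of all genes 10.8% were lower without overlap. Across 14 astrocyte markers the median was -0.063, and 1 was lower without overlap. None of these markers was at 0 in every library. The part of these cell types in the values of Sc5d, Abca1 and the fatty acid genes was not tested.

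Partners and targets of the liver X receptors came to a median of 0.068 across the 16 of 18 genes tested, and 3 were higher and 0 lower without overlap, which is 18.75% beside 22.6% of all genes. Rxrg, a retinoid X receptor gene abundant in striatum, averaged 17.5 ± 3.13 FPKM in WT and 28.6 ± 5.97 in KO (log2 0.69 ± 0.18, limma adjusted p = 0.209), and Rxrb 18.7 ± 0.725 and 20.9 ± 0.880. Nr1d1, a clock receptor gene, differed by 0.58 ± 0.18 and the coactivator gene Ncoa1 by 0.24 ± 0.13.

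**Figure D5:**
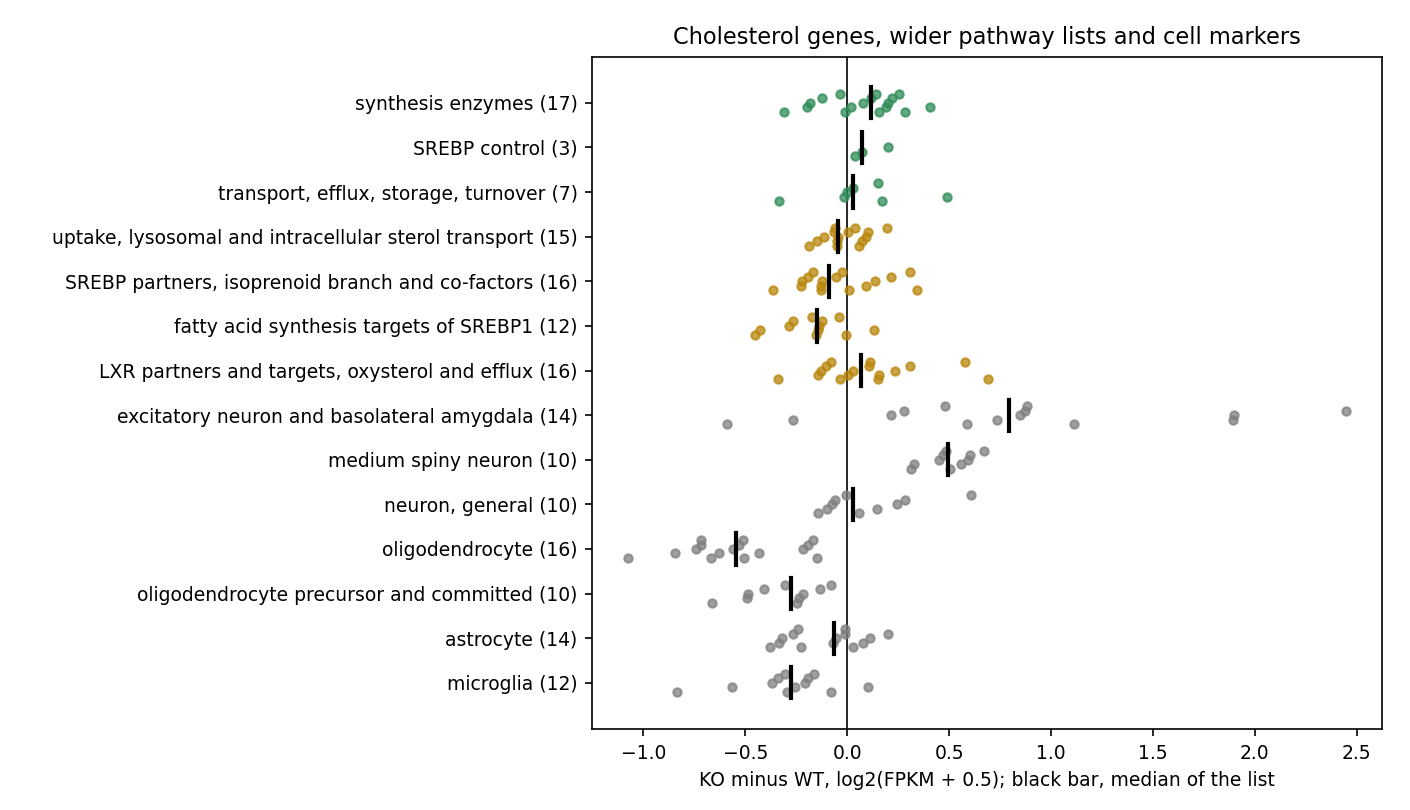
KO minus WT difference of log2(FPKM + 0.5) for each tested gene of the cholesterol groups (green), the wider pathway lists (gold) and 7 lists of cell markers (grey), with the number tested in brackets and the median as a black bar. Medians of the cholesterol groups lie between 0.029 (transport, efflux, storage and turnover) and 0.12 (synthesis enzymes, drawn as a single group). The fatty acid list lies at -0.15, excitatory markers at 0.79 and oligodendrocyte markers at -0.55.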

How the data were processed

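Sequencing libraries came from column-purified total RNA and a SMARTer mRNA kit, per the labels' protocols. The authors deposited FPKM values for 54532 genes in 6 libraries, with gene coordinates and lengths, on build GRCm38 (mm10) per the submitters' processing notes. The sources used here name no aligner, counting program, annotation release or strand setting. FPKM times gene length gave whole multiples of a step per library for 100% of nonzero values (tolerance 0.01), and these multiples were used as reads. Columns were matched to samples by name, with 0 unmatched.

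Differences were tested with limma 3.58.1 (R 4.3.3; trend, robust) on log2(FPKM + 0.5) over the 16155 genes that averaged 0.5 FPKM or more, with Benjamini-Hochberg adjustment and a threshold of 0.05. The fit was tested on simulated data with changes larger than any seen among the tested cholesterol genes. That simulation therefore does not bear on differences of their size. Sets were described by counts and medians. The fits were repeated with a pseudocount of 0.1 or 1, without a filter, with a filter of 5 FPKM, 3 other scalings, the replicate number as a block, no trend, voom on those reads, and each library left out. Non-overlap counts under other scalings, and all alternatives of the fatty acid list, were added after seeing the data.

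The 28 genes, the lists and the naming rule were chosen with earlier results of these data known. Every cholesterol gene was named, with all 6 values where groups did not overlap, where the unadjusted p was under 0.05, for control genes and for the highest and lowest gene of a group. From each wider list up to 4 genes of at least 1 FPKM with the smallest p were named. Acat3, Ctsb, Akap9, Gm43738, Vps51, Snap25 and Xist were named after their values were seen. The planned motif search and sequences were not used here.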

Additional observations from a re-analysis of the deposited data

How the results depend on the processing

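No cholesterol gene passed the adjusted threshold under any of 16 alternatives, and Fdft1 had the smallest adjusted p in each (limma, 0.107 with voom to 0.444 without WT replicate 2). Of 426 gene values under alternatives, 405 kept their direction and 21 reversed it, all of the latter in 7 genes with differences near 0. Changing the filter, blocking on replicate number or dropping the trend leaves each log2 difference as it was. Values from those fits are among the 405 and kept their direction by construction. With an equal FPKM sum per library, quantile normalization and voom (on log2 CPM), Insig1 was -0.020, -0.031 and -0.0073 and Pmvk -0.040, -0.037 and -0.030. Soat1 was -0.022 with an equal sum and -0.014 with voom. When libraries were left out, values ranged from -0.090 to 0.076 for Hmgcs1, -0.064 to 0.076 for Msmo1, -0.062 to 0.029 for Nr1h2, -0.038 to 0.055 for Pmvk, -0.050 to 0.12 for Soat1 and -0.056 to 0.056 for Stard4. The synthesis median was 0.060 with an equal sum and 0.061 (without KO replicate 3) to 0.13 (without KO replicate 1) when a library was left out, 0.070 without KO replicate 2, and the median of the transport, efflux, storage and turnover genes was -0.012 to 0.12, the ends given by the same libraries. The causes were not tested. With an equal sum, the cholesterol genes higher without overlap numbered 2 in place of 5 and the fatty acid median was -0.20, and with voom that median was -0.21. The median over all genes tested also shifted under these settings, by -0.0505 with an equal sum and by -0.0442 with voom. The labels do not say whether the replicate numbers pair the samples. Deviations of same-numbered libraries from their group means correlated at -0.0899, -0.138 and -0.0661, and those of other pairs at -0.0421 to 0.118. With only 3 libraries per group, each centred on its group mean, these values cannot decide whether the numbers mark pairs. With the replicate number as a block, 0 cholesterol genes passed and Fdft1 had a limma adjusted p of 0.414. Without a filter Fdps entered the test, and with a minimum of 5 FPKM 21 cholesterol genes were left. Nr1h3 and Fdps rest on the fewest reads, and counting error limits them most.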
